A study of Mus musculus with 11 samples.

Results

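The genes described here are 9 genes of the podocyte and its slit diaphragm: Nphs1, Podxl, Synpo, Wt1, Ptpro, Clic3, Thsd7a, Cd2ap and Magi2. They were taken by symbol from the 28692 genes counted in every library, and were followed through the podocytes and all other cell classes of mouse kidneys. The study profiled dissociated kidneys of male C57Bl/6 mice, which were 10 weeks old when injury was induced, with droplet single-cell RNA-seq, which counts unique molecular identifiers (UMIs), each standing for 1 captured transcript. The 11 libraries comprised 5 controls from naive mice, 3 libraries of unilateral ischemia/reperfusion injury (UIR, the left renal pedicle clamped for 30 min) and 3 of unilateral ureteral obstruction (UUO, the left ureter tied irreversibly). Injured kidneys were taken at day 28 after the procedure, and the naive mice were of the same age according to the methods. Values by library are given in the order Ctrl, N1, N2, AN1 and AN2 for controls, then UIR, UIR1 and UIR2, then UUO, UUO1 and UUO2. The injured libraries titled UIR and UUO carry no number and are called unnumbered. The control Ctrl carries none either, but the term does not include it, and it stayed in the fits without them. The numbers of mice in the methods, 3 for each injury in this assay and 5 naive, equal the numbers of libraries. The labels themselves tie no library to an animal, so p-values measure the spread between these libraries.

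Podocytes are the epithelial cells that wrap the glomerular capillaries. Their interdigitating foot processes are bridged by the slit diaphragm, a junction built around nephrin and anchored through adaptor proteins to the actin cytoskeleton, and a negatively charged surface coat keeps the processes apart. Podocytes hardly renew in the adult, and loss of their slit diaphragm proteins is known to cause proteinuria. By role, the 9 genes fall into the slit diaphragm (Nphs1, which encodes nephrin, and the adaptors Cd2ap and Magi2), the foot process membrane (Podxl, the sialomucin podocalyxin of the surface coat, Ptpro, a receptor tyrosine phosphatase, and Thsd7a, a target of autoantibodies in membranous nephropathy), the cytoskeleton (Synpo, the actin-associated synaptopodin), a transcription factor needed for podocyte identity (Wt1) and a member of the chloride intracellular channel family (Clic3).

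Start regions of 3 of the genes are shown because these genes span the range of cell-type restriction found in the data, from Nphs1, which was all but confined to podocytes in the controls, through Thsd7a, to Cd2ap, which was found in every class shown. They are RefSeq sequences of GRCm38.p6, from 250 bases before to 50 bases after the start annotated there, read 5′ to 3′ on the strand of the gene. The windows lie at chr7:30459808-30460107 on the plus strand, chr6:12749204-12749503 on the minus strand and chr17:42876375-42876674 on the minus strand. Capitals mark the letters GCGTGGG, a core of the WT1 and EGR motif, and GGGCGG, an SP1-type GC box, each searched on both strands.
Nphs1: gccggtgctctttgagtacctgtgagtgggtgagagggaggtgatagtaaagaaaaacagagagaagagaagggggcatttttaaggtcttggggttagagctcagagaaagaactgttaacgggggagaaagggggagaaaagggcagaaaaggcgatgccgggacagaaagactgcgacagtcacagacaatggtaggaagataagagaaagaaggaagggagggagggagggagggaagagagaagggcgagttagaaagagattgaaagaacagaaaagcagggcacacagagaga
Thsd7a: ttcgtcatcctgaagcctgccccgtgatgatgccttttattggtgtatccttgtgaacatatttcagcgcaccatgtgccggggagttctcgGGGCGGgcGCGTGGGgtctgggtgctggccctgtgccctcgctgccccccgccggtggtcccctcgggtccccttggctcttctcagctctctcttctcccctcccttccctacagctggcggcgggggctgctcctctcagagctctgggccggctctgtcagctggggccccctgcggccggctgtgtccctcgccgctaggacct
Cd2ap: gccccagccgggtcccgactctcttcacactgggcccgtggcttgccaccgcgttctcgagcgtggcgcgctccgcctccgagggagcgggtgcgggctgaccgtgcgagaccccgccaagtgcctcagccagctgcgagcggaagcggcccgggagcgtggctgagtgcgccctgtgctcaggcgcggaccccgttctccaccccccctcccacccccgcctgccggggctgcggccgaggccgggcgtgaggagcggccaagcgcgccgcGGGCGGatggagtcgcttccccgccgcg

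The Nphs1 window was 49.7% GC with 6 CpG dinucleotides and held neither string. The Thsd7a window was 66.7% GC with 19 CpGs and held 1 match to each string, whereas the Cd2ap window was 77% GC with 41 CpGs and held 1 GC box. Among 32851 promoter windows of the same length the median was 52.7% GC, 5.04% held GCGTGGG and 35.7% held GGGCGG. The matches are a description of these letters and not of binding. The annotation of the counted genes places the start of Nphs1 upstream of this window, at position 30458315, so the 2 annotations differ on it. Of the 9 genes, 6 had an entry in the promoter table, and Podxl, Synpo and Wt1 had none. In the annotation of the counted genes (GRCm38) the genes lie on 6 chromosomes, with Podxl, Ptpro and Thsd7a on chromosome 6 and Wt1 and Clic3 on chromosome 2.

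After removal of barcodes over 30% mitochondrial UMIs, 40587 cells were kept of 86523 called. This limit removed a mean of 73.5% of called barcodes in controls, 29.3% in UIR and 5.19% in UUO, so the kept fraction itself differed between the groups. Total UMIs per library ranged from 91920461 to 110914244 in controls, from 82522753 to 117043590 in UIR and from 49503312 to 60918546 in UUO. The series states that the controls were made in 3 batches, here the label sets Ctrl, N and AN, and gives no batch for the injured libraries, so batch and injury cannot be told apart. Clusters that met no naming rule held 20.8%, 18.0% and 12.3% of control, UIR and UUO cells. Pairs of libraries shared at most 17 cell barcodes, and none of these marked a podocyte.

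A podocyte-like class, called podocytes from here on, held 740 of the kept cells: 255 in controls, 331 in UIR and 154 in UUO. It was named from 12 markers that exclude the 9 genes, and neither set entered the clustering. Of these markers Cdkn1c, a cell cycle inhibitor kept on in mature podocytes, had a UMI in 95% of these cells and in 1.89% of proximal tubule cells, at median depths of 6863.5 and 5025 UMIs. It was the most often detected of the 12, and Lmx1b, a transcription factor gene, the least, with a UMI in 47.6% of these cells. The class joined a deep cluster of 507 cells, with Cdkn1c, Nphs1 and Clic3 among its leading genes, and a shallow cluster of 233 cells, led by Cdkn1c, Synpo, Myom2 and Clic3, whose cells held library medians of 614 to 1099.5 UMIs. Each marker had a UMI in at least 64.9% of the deep cells, but in the shallow cells the share ran from 9.87% (Lmx1b) and 14.6% (Robo2) to 85.0% (Cdkn1c), so the naming of the shallow cells rests on fewer detected markers.

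The unnumbered UUO library stands apart. It held 27 podocytes, of which 3 were of the deep cluster, with a median of 672 UMIs per cell and 33123 UMIs in all, while the other podocyte pools held 243564 to 1000046. Free RNA, estimated from empty droplets, made up 19.5% of its podocyte UMIs, against 3.002% to 13.7% in the other libraries. Results in podocytes are therefore also given without it or without both unnumbered injured libraries.

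Podocytes formed a smaller share of the kept cells in the UUO libraries than in most controls, but the groups overlapped. The share was 3.21%, 1.78%, 1.63%, 2.62% and 2.94% in the controls, 1.22%, 1.87% and 2.605% in UIR, and 0.629%, 1.04% and 1.89% in UUO. Neither the UIR mean of 1.90% ± 0.692 (SD, n = 3) nor the UUO mean of 1.19% ± 0.646 (SD, n = 3) differed detectably from the control mean of 2.43% ± 0.703 (SD, n = 5; two-sided exact permutation p = 0.286 and 0.0714). The smallest p this design allows is 0.0179. The values moved with the mitochondrial limit: the difference from control, -0.54 points in UIR and -1.25 in UUO, was 0.436 and -0.278 at a limit of 50% and -4.08 and -5.19 at a limit of 15%, where that in UUO had an unadjusted exact permutation p under 0.05. Since proximal tubule cells made up most control cells and few UUO cells, the share was also taken over the cells outside the proximal tubule. The means were then 7.19% ± 1.79, 2.22% ± 0.744 and 1.21% ± 0.664 for control, UIR and UUO (exact permutation p = 0.0357 and 0.0179, and 0.0857 and 0.0536 after adjustment over 12 tests of podocyte shares). A share cannot tell fewer podocytes from more of the other cells.

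Podocytes of injured kidneys more often belonged to the shallow cluster. Its share of podocytes was 17.3%, 3.03%, 3.13%, 5.88% and 6.90% in controls, 63.3%, 40.3% and 36.4% in UIR, and 88.9%, 18.2% and 51.4% in UUO. Every injured library lay above every control (exact permutation p = 0.0179 for each model, 0.0536 adjusted over the 12 tests). Median UMIs per podocyte ranged from 8266 to 10898 in controls, while UIR libraries had 2323 to 6878 and UUO libraries 672 to 7414. Within the deep cluster the library medians ranged from 8310 to 11417 in controls and from 7001 to 9621 in UIR, and were 2769, 8205 and 8173 in UUO.

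**Figure D1:**
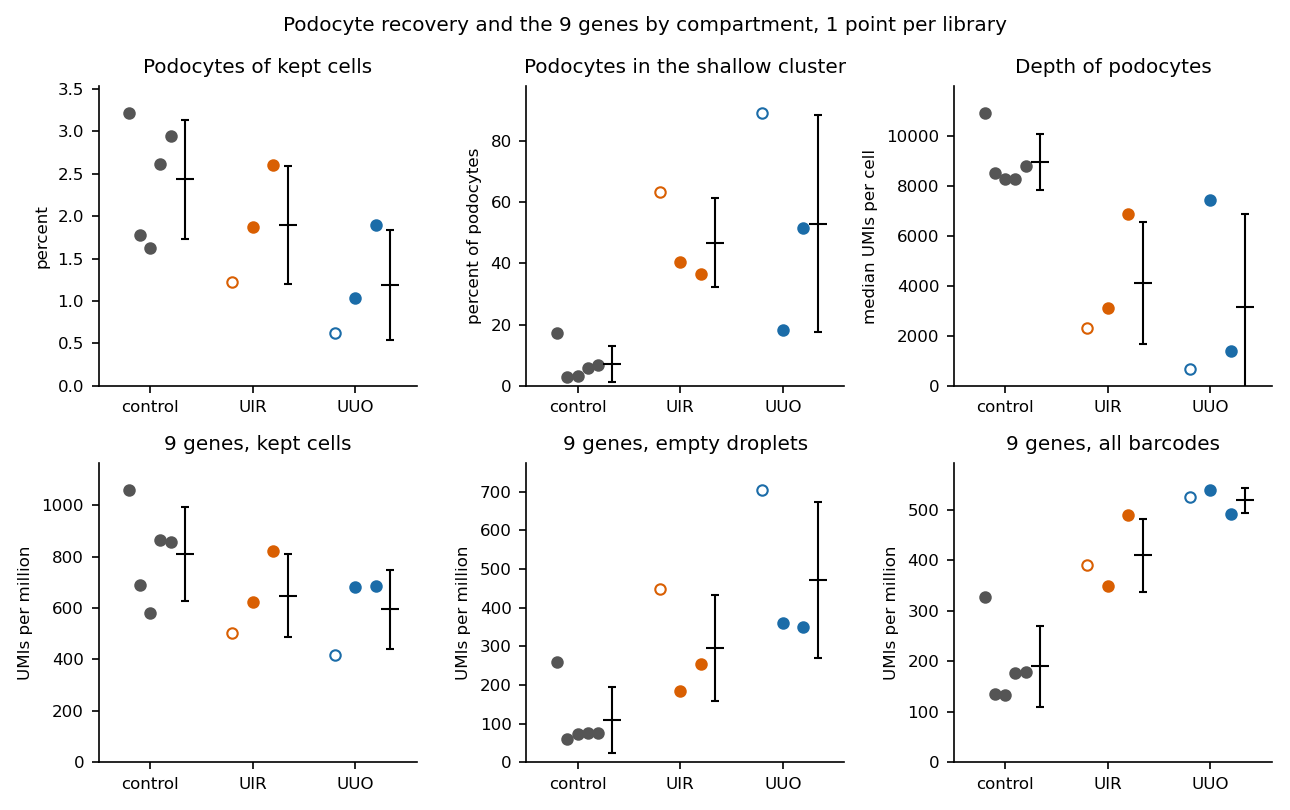
Podocyte recovery and the 9 genes by compartment, 1 point per library with the group mean and SD; open points are the unnumbered injured libraries. The upper panels give podocytes as a percent of kept cells, the percent of podocytes in the shallow cluster and the median UMIs per podocyte, and the lower panels the summed UMIs of the 9 genes per 1000000 UMIs of kept cells, empty droplets and all barcodes. The shallow share is 3.03% to 17.3% in controls and 18.2% to 88.9% in injured libraries, and the sum over all barcodes is highest in UUO.

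In the controls, podocytes ranked first of 13 cell classes for each of the 9 genes, which were chosen as podocyte genes, so this order is a description. Levels are given as CPM, the UMIs of a gene per 1000000 UMIs of the summed cells. Nphs1 reached 2432 CPM in podocytes and 5.404 in the next class, dendritic cells, a ratio of 450.0. Clic3 was similarly restricted, at 1818 CPM against 4.89 in principal cells of the collecting duct, a ratio of 372. Next came Thsd7a (25.9 times the endothelial level), Magi2 (22.7 times failed repair tubule cells), Synpo (19.0 times stroma) and Wt1 (18.2 times stroma). Ptpro stood 9.09 times above macrophages and Podxl 4.24 times above endothelial cells, at 1067 CPM. Cd2ap was the least restricted, at 693 CPM in podocytes and 379 in principal cells, a ratio of 1.83.

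**Figure D2:**
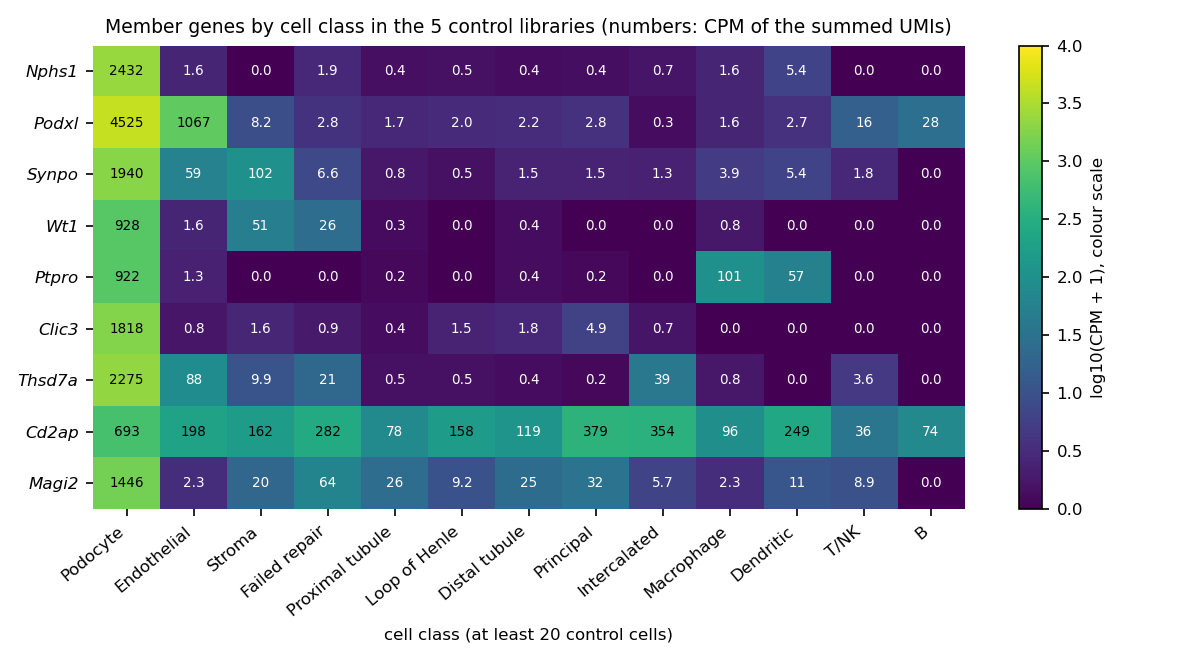
Levels of the 9 genes in 13 cell classes of the 5 control libraries, with the CPM of the summed UMIs written in each cell and log10(CPM + 1) as colour. Nphs1 and Clic3 stay under 6 CPM outside podocytes, whereas Podxl reaches 1067 CPM in endothelial cells and Cd2ap exceeds 30 CPM in all 13 classes.

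Below the first rank, several levels rested on few cells or on 1 cluster of a class. The 5.404 CPM of Nphs1 in dendritic cells came from 38 control cells, and the order of the classes under it is not resolved. Pooled over all groups, Cd2ap was at 974 CPM (exact Poisson 95% interval 929 to 1021) in a small principal cluster led by Aldh1a3, Spink8, Phactr1 and Aqp4, of whose 82 cells only 5 were of controls, and at 715 CPM (691 to 739) in the deep podocyte cluster, so this is no comparison of control levels. Such intervals cover counting error only. Wt1 outside podocytes and stroma lay mainly in a failed repair cluster led by Igfbp2, Tagln, Map1b and Tnc, with 167 CPM and a UMI in 76.4% of 381 cells. The highest endothelial Podxl, 1163 CPM, was in a cluster led by Sox17, Jam2, Fbln5 and Fbln2. A cluster left unnamed, led by Chil3, Ifitm6, Plac8 and Hp, carried Ptpro at 159.9 CPM.

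Podocytes held most UMIs of 8 of the genes in the controls, and lower mean shares in both injuries, where the unnumbered library had the lowest share for every gene. Of all Nphs1 UMIs in kept cells, podocytes held 99.2% ± 0.467 in controls, 94.6% ± 3.84 in UIR and 70.7% ± 36.7 in UUO (SD over libraries). The UUO mean joins 28.4% in the unnumbered library to 89.9% and 93.8% in the others. For Clic3 these shares were 98.6%, 90.5% and 60.8%, and for Wt1 95.6%, 63.9% and 46.2%. The group means of Synpo were 92.5%, 57.2% and 25.9%, those of Ptpro 92.0%, 57.6% and 29.5%, and those of Thsd7a 90.8%, 59.2% and 39.3%. The lowest control share of Synpo, 87.5%, lay above the highest injured one, 70.2%, and its UUO shares were 4.61% in the unnumbered library and 36.0% and 37.2% in the others. Podxl (70.5%, 49.6% and 29.5%) and Magi2 (67.1%, 58.2% and 44.9%) had lower control shares. Without the unnumbered library the UUO shares of Magi2, 61.5% and 68.1%, lay within the control range of 55.99% to 77.0%, and those of Podxl, 40.3% and 42.6%, lay below its range of 61.9% to 81.1%. Cd2ap was mostly outside podocytes throughout (15.4%, 4.28% and 2.06%). These shares move with the number and depth of podocytes recovered as well as with the level of each gene per cell.

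Within podocytes, no gene of the 9 passed the test in either injury. Podocyte UMIs were summed per library and tested with the edgeR quasi-likelihood test, with p-values adjusted by Benjamini-Hochberg over the 5946 genes tested, and all 9 genes passed the filter on low counts. In UIR against control 0 of 9 were called where 1.08% of all genes tested were, in UUO against control 0 of 9 against 1.82%, and in UUO against UIR 0 of 9 against 0.0841%. At an unadjusted p under 0.05 the counts were 2, 2 and 0. The share of all genes at that threshold is not given here, so these counts are not read as a result. DESeq2 called 0 of 9 in each. Of the fitted changes, 8 of 9 lay below zero in UIR (median log2 change -0.20) and 7 of 9 in UUO (median -0.25), while the median of all genes tested was -0.00 in both. This lean moved with the unnumbered libraries: without that of UUO, 5 of 9 lay below zero in UUO (median -0.04), and without both, 6 of 9 in UIR (median -0.06) and 5 of 9 in UUO (median -0.05). In simulations of the UIR comparison the test recovered 52% of genes changed 2-fold and 98% of those changed 4-fold. In the UUO comparison it recovered 29% and 91%. These rates come from simulations over the 5946 genes tested and were not taken for the 9 genes alone. For the 9 genes over all libraries, each 95% interval of the log2 change against control excluded a 2-fold change in either direction. The lowest bound was -0.91 (Nphs1 in UUO) and the highest 0.63 (Podxl in UUO). Smaller changes are not excluded.

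The slit diaphragm gene Nphs1 was at 2297, 1945, 2115, 2655 and 2851 CPM in the controls, 1544, 2223 and 2357 in UIR, and 815, 2178 and 2415 in UUO. All numbered injured libraries lay inside the control range, and both unnumbered ones below it. The fitted log2 change was -0.20 ± 0.26 (SE) in UIR and -0.32 ± 0.27 in UUO, with 95% intervals of -0.76 to 0.36 and -0.91 to 0.27. Without both unnumbered libraries these changes were -0.05 and -0.09, and that in UUO was -0.08 without the unnumbered UUO library alone. Magi2 had the same shape, with 1073 to 1671 CPM in controls, 961, 1219 and 1331 in UIR, and 362, 1431 and 1377 in UUO, and log2 changes of -0.25 ± 0.26 and -0.26 ± 0.28. Without both unnumbered libraries they were -0.14 and -0.05, and that in UUO -0.04 without its unnumbered library. Cd2ap ranged from 519.5 to 775 CPM in controls, while UIR had 489 to 763 and UUO 483 to 772, and its log2 changes were 0.02 ± 0.14 and -0.03 ± 0.16.

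Podxl was called in UUO or not depending on the libraries and podocytes included. It was at 4589, 4470.4, 4311, 4558 and 4526 CPM in controls, 3391, 4817 and 4953 in UIR, and 3864, 6541 and 6542 in UUO. Both numbered UUO libraries thus lay above all controls, and the unnumbered one below them. Over all libraries the UUO log2 change was 0.31 ± 0.16 (95% interval -0.01 to 0.63, edgeR adjusted p = 0.388). DESeq2 over all libraries gave a change of 0.31 (adjusted p = 0.714). Without the unnumbered UUO library the edgeR change was 0.51 (adjusted p = 0.0253), and without both unnumbered injured libraries 0.51 (adjusted p = 0.00101). In deep podocytes it was 0.52 (adjusted p = 0.000704). There the unnumbered pools, of 18 UIR and 3 UUO cells, were under the minimum of 20, so this fit rests on the same libraries. The deep and without-both settings were chosen after the data had been seen. In UIR the change was -0.02 ± 0.16, and the difference between UUO and UIR was 0.33 ± 0.18 (adjusted p = 0.743).

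The other membrane genes did not pass. Ptpro was at 843 to 1044 CPM in controls, while UIR had 710.3 to 1011 and UUO 755 to 1295, with log2 changes of -0.02 ± 0.14 and 0.19 ± 0.15, the latter 0.30 without the unnumbered UUO library. Thsd7a was at 2362, 1917, 2065, 2331 and 2379 CPM in controls, 1207, 1896.5 and 2017 in UIR, and 1449, 2169.7 and 1958 in UUO. Its log2 change in UIR was -0.35 ± 0.15 (unadjusted p = 0.0220, edgeR adjusted p = 0.412) and in UUO -0.25 ± 0.15. The UIR libraries overlapped the controls through 1 library, and without both unnumbered libraries the changes were -0.17 and -0.14.

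Synpo was at 1833, 2314, 1922, 1907 and 1948 CPM in controls, 1224, 1818 and 1956 in UIR, and 1087, 1799 and 1594 in UUO. All UUO libraries lay below all controls. The UUO log2 change was -0.38 ± 0.16 (95% interval -0.70 to -0.07, unadjusted p = 0.0182, edgeR adjusted p = 0.237), and that in UIR -0.23 ± 0.15, which were -0.26 and -0.06 without both unnumbered libraries. Wt1 was at 967, 861, 821, 947 and 936 CPM in controls, 608, 768 and 840.0 in UIR, and 725, 969.6 and 963 in UUO, with log2 changes of -0.27 ± 0.13 (unadjusted p = 0.0441, edgeR adjusted p = 0.555) and -0.02 ± 0.14. Without both unnumbered libraries these were -0.17 and 0.05. Clic3 was at 1958, 1986, 1803, 1673 and 1645 CPM in controls, 1831, 1495 and 1397 in UIR, and 1389, 1582 and 1475 in UUO. As with Synpo, every UUO library lay below every control, at a log2 change of -0.32 ± 0.14 (unadjusted p = 0.0262, edgeR adjusted p = 0.280). Its UIR change was -0.20 ± 0.13. Without both unnumbered libraries the Clic3 changes were -0.31 in UIR and -0.28 in UUO (edgeR adjusted p = 0.162 and 0.142).

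**Figure D3:**
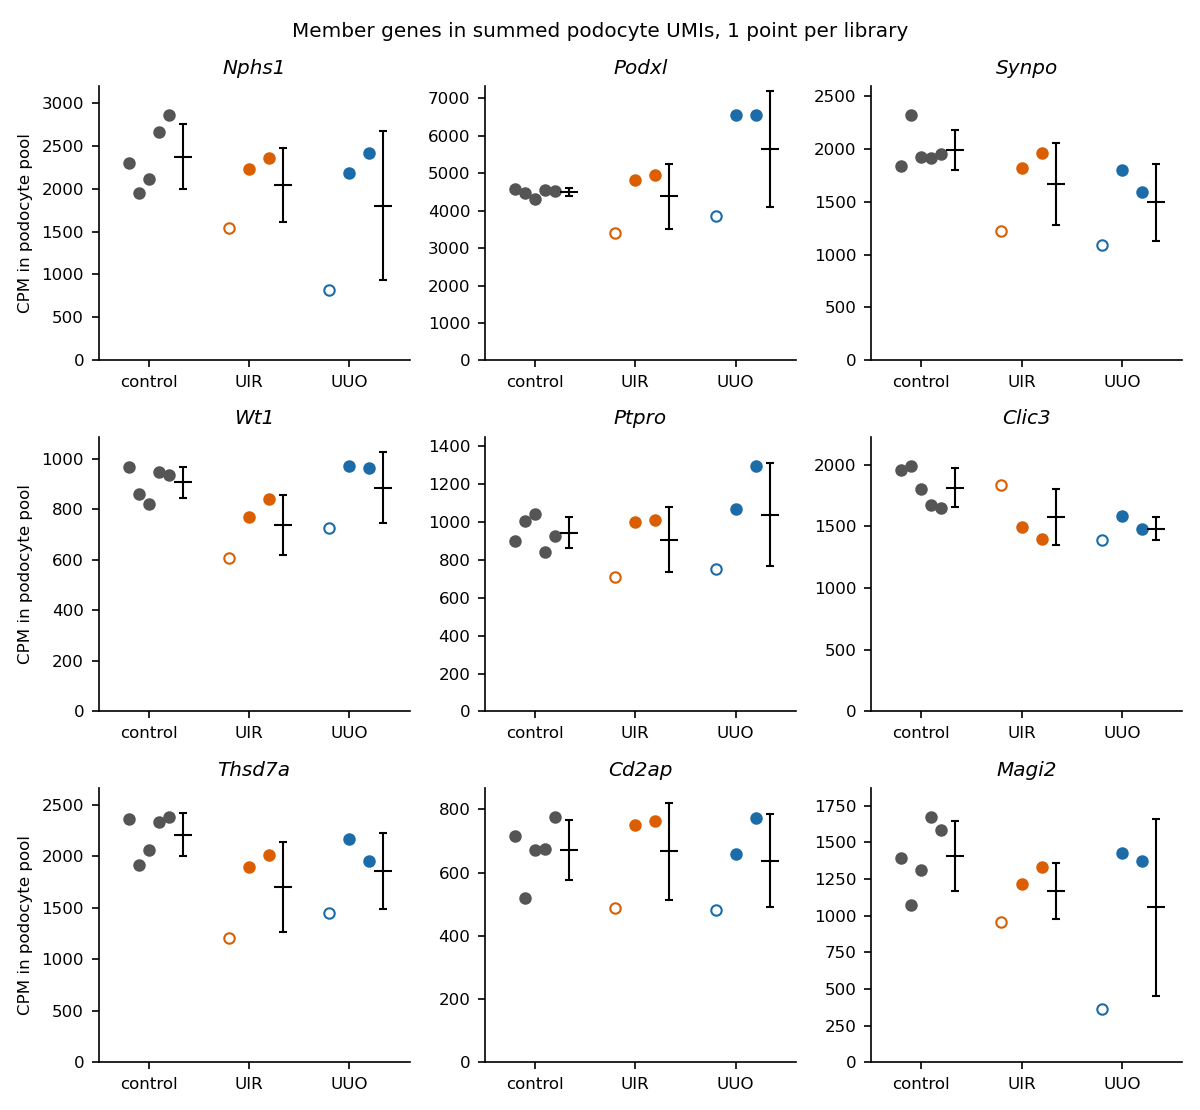
CPM of each of the 9 genes in the summed podocyte UMIs, 1 point per library with the group mean and SD; open points are the unnumbered injured libraries. In UUO the numbered libraries of Podxl (6541 and 6542) lie above all controls, and all UUO libraries of Synpo and Clic3 lie below them.

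**Figure D4:**
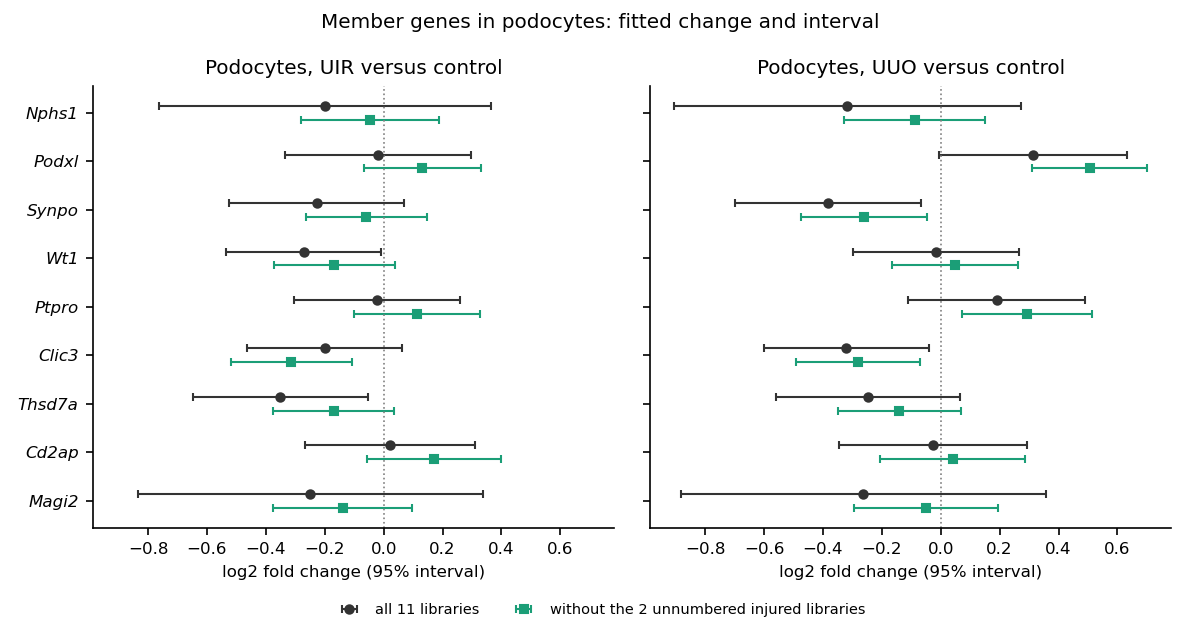
Fitted log2 fold change of each gene in podocytes with its 95% interval, for UIR and UUO against control, over all 11 libraries (circles) and without both unnumbered injured libraries (squares). Without those libraries the intervals narrow, and in UUO the intervals of Podxl and Ptpro lie above zero and those of Synpo and Clic3 below it, as does that of Clic3 in UIR. Only Podxl passes after adjustment over all genes.

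The deep and shallow clusters carried the genes in different proportions. In the deep cluster Synpo stood at 1942, 1856 and 1645 CPM in control, UIR and UUO, and in the shallow cluster at 1752, 1415 and 2070. Nphs1, at 2448, 2359 and 2273 CPM in deep podocytes, was at 450.5, 749 and 1535 in shallow ones. Podxl was at 4554, 5027 and 6647 CPM in deep and 1001, 1648 and 3713 in shallow podocytes. The shallow control values rest on 23 cells, in which Nphs1 had 9 UMIs (exact Poisson 95% interval 206 to 855 CPM). Clusters were formed from gene expression, so differences between them are described here and not tested.

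A UMI of each gene was found in 76.1% to 88.6% of podocytes, against 0.342% to 1.72% of proximal tubule cells for 7 of the genes, 12.0% for Magi2 and 37.0% for Cd2ap. After thinning every podocyte to 1000 UMIs, which left out 1 to 13 cells of each control, 20 to 32 of each UIR library and 6 and 35 in the numbered UUO libraries, a podocyte had 6.72 ± 0.293 of the 9 genes in controls, 5.85 ± 0.707 in UIR and 6.52 ± 0.0792 in UUO (SD). The unnumbered UUO library kept 8 such cells and was left out. The share of podocytes with a Thsd7a UMI was 85.2% in controls and 64.3% in UIR after thinning, and 94.1% and 68.5% before it. Over 27 exact permutation tests the lowest adjusted p was 0.241. With so few libraries no outcome of these tests could fall under 0.05 after adjustment, so they decide nothing. Thsd7a and Podxl in UIR had an unadjusted exact permutation p of 0.0179, the smallest this design allows.

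Other podocyte genes are given beside the 1.08% of all genes called in UIR and 1.82% in UUO. Of 10 further slit diaphragm and junction genes 7 were tested and 0 called in either injury; Kirrel, a nephrin relative, had a log2 change of 0.44 in UUO (edgeR adjusted p = 0.380). Of 10 actin cytoskeleton genes 1 rose in UUO, Iqgap1, a scaffold of the cortical actin network, from 219.9 ± 39.0 to 317 ± 92.6 CPM (log2 change 0.66, edgeR adjusted p = 0.0207). Of 10 genes of the basement membrane and its receptors 1 rose in UUO, the proteoglycan gene Agrn, from 129 ± 19.5 to 208 ± 24.0 CPM (log2 change 0.69, edgeR adjusted p = 0.0256), and all 10 fitted changes lay above zero, with a median of 0.34. Both calls were lost with free RNA subtracted, at a mitochondrial limit of 50%, without the filter on low counts, without either numbered UUO library and with DESeq2, that of Iqgap1 also without AN1 or AN2, and that of Agrn also without Ctrl or N2. Of 8 secreted factors and transcription factors 5 were tested and 0 called. In none of these lists did a gene pass in UIR, and neither did any of the 12 naming markers in either injury.

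Of a list of 15 injury response genes only 5 were tested, and 4 of these were called higher in UIR, where 1.08% of all genes were called. Of the 4, 3 genes, Spp1, Clu and Des, passed the filter on low counts only with the help of the injured pools, so their calls and the count are no support for a difference. The called genes were Spp1, the matricellular osteopontin, from 17.1 ± 7.23 to 214 ± 89.5 CPM (log2 change 3.69, edgeR adjusted p = 0.000313), Clu, a secreted chaperone (3.44, adjusted p = 0.00255), Des, a muscle type intermediate filament (1.94, adjusted p = 0.00241), and Vim, the vimentin filament (0.53, adjusted p = 0.0435). The UIR calls of Clu and Spp1 were lost with the markers among the clustering genes (Clu at an adjusted p of 0.699), and that of Des without the AN controls and at a mitochondrial limit of 15%. The call of Vim was lost in 13 of 29 alternatives, among them DESeq2, deep podocytes only and leaving out UIR, UUO2, N1, N2, AN1 or AN2. It was also lost without both unnumbered injured libraries. In UUO only Spp1 was called (2.54, adjusted p = 0.0334), and in 18 of 28 alternatives. It was not called when either numbered UUO library, Ctrl, AN2 or the N controls were left out. Nor was it called in deep podocytes, at a mitochondrial limit of 15% or with the markers among the clustering genes. Genes of other cells moved in the same pools, and their part in these changes was not tested. The summed macrophage markers were at 2.04 to 21.7 CPM in control podocyte pools, 90.3 to 156 in UIR and 82.1 to 332 in UUO, with at most 4, 2 and 1 of the 5 markers at 0 in a pool. T and NK cell markers were at 0 to 3.42 CPM, 13.8 to 28.7 and 2.65 to 90.6. The most changed genes of the UIR podocytes were Cd52, Apoe, H2-Aa, Spp1 and H2-Ab1 (log2 changes of 4.49, 3.98, 3.83, 3.69 and 3.52) on the higher side, and Pde10a, Ucp2, Csrp2, Chst1 and Spop (-1.61, -0.80, -0.62, -0.61 and -0.59) on the lower. H2-Aa and H2-Ab1 encode MHC class II chains, and these 5 higher genes likewise did not pass the filter on the controls alone. In UUO podocytes they were Igkc, an immunoglobulin chain gene, Mgp, Apoe, H2-Ab1 and H2-Aa (6.53, 4.68, 4.05, 3.72 and 3.43), for which the same holds, and Miox, Akr1c21, Dynll2, Hrsp12 and Sdf2l1 (-4.36, -3.56, -1.35, -1.33 and -1.33). Miox and Akr1c21 were also among the leading genes of proximal tubule clusters. Summed proximal tubule markers were at 96.3 to 373.5 CPM in control podocyte pools, 92.0 to 275 in UIR and 7.95 to 151 in UUO. Their part in the lower values of Miox and Akr1c21 was not tested.

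Outside podocytes, 41 pairs of a gene and a class passed the filter over 9 classes with enough pools. Of these, 10 were called in UIR (7 higher, 3 lower) and 14 in UUO (11 higher, 3 lower). Of all genes tested, 0.607% to 31.1% were called in a class in UIR and 2.22% to 36.8% in UUO, and the counts include pairs resting on 1 cell. Of the calls, 4 in UIR and 6 in UUO were of pairs that did not pass the filter on their control pools alone, so that a call against control is no support for a difference there. Nphs1 passed the filter in no class but podocytes, Clic3 only in principal cells and Ptpro only in macrophages. The plot of single gene and class pairs shows 9 of the called ones.

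Cd2ap was higher in the injured pools of the loop of Henle class and of intercalated cells. In the loop of Henle 3 of 5 tested genes were called in each injury (Synpo and Thsd7a through the injured pools only), against 31.1% of all genes in UIR and 36.2% in UUO. Cd2ap was there at 189.6, 153, 115, 161 and 156 CPM in controls, 364, 435 and 452 in UIR, and 379, 439.5 and 491 in UUO, with no overlap. The log2 change was 1.18 ± 0.15 in UIR (edgeR adjusted p = 1.48e-07) and 1.25 ± 0.15 in UUO (adjusted p = 4.11e-08). The control cells came mostly from a cluster led by Egf and Wfdc15b (270 control cells) and the injured ones from a cluster led by Umod and Slc12a1, which held 2 control cells. Within the former, Cd2ap was at 151 CPM in controls and 232 in 90 UIR cells (exact Poisson 95% intervals 134 to 169 and 199 to 269). The Egf cluster held 10 UUO cells, so for UUO injury and cluster cannot be told apart in this class.

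In intercalated cells, the acid-base regulating cells of the collecting duct, 1 of 2 tested genes was called in each injury, against 12.9% and 25.5% of all genes. Cd2ap was at 369, 406, 282, 362 and 339 CPM in controls, 567, 592 and 809.7 in UIR, and 692, 818 and 872 in UUO. All injured libraries lay above all controls, with log2 changes of 0.66 ± 0.14 and 0.86 ± 0.14 (edgeR adjusted p = 0.00112 and 1.72e-05). The UIR call was lost under a mitochondrial limit of 15%. By edgeR over all libraries, Cd2ap was not called in endothelial, failed repair, macrophage, principal, proximal tubule, stroma or T and NK cells, with log2 changes between -0.58 and 0.34. It was called in 5 alternatives in principal cells of UUO (0.29 to 0.36), in 4 in stroma of each injury (-0.81 to -0.53) and in 1 in endothelial cells of UUO (-0.45). The other gene tested in intercalated cells, Thsd7a, had 16.8 to 77.8 CPM in controls, while UIR had 24.9 to 48.8 and UUO 8.72 to 21.7. Its UUO log2 change of -1.59 ± 0.56 was not called by edgeR (adjusted p = 0.0654), but was called by DESeq2 and in 12 alternatives in all.

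Magi2 fell in the class named principal cells in both injuries and in the proximal tubule of UIR. Principal cells are the water and sodium handling cells of the collecting duct. In this class Magi2 was at 20.2, 44.9, 26.1, 30.6 and 47.0 CPM in controls. UIR had 12.1, 19.1 and 12.4 and UUO 11.8, 10.2 and 16.2. Every injured library lay below every control, at log2 changes of -1.35 ± 0.26 (edgeR adjusted p = 0.000454) and -1.62 ± 0.26 (adjusted p = 3.66e-05). In this class 1 of 5 tested genes was called in UIR and 3 of 5 in UUO (Synpo among them, through the UUO pools only), against 22.6% and 36.8% of all genes. Control cells of the class were mostly of a cluster led by Aqp2 and Aqp3, and injured ones of a cluster led by Clu and Tmem52b. The Clu cluster held 2 control cells. Among its leading genes were 1 marker of the class and 1 of another class. These genes included Slc12a3, which the paper uses to mark the distal tubule. The leading genes of the Aqp2 cluster held 5 markers of the class and 1 of another. For UUO, the part of this mix in the changes against control was not tested. Within the Aqp2 cluster Magi2 was at 32.6 CPM in 329 control cells and 17.9 in 198 UIR cells. The exact Poisson 95% intervals were 27.6 to 38.3 and 13.0 to 23.9.

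In the proximal tubule 1 of 5 tested genes was called in UIR and 2 of 5 in UUO, against 10.2% and 2.22% of all genes. Magi2 was at 20.2, 27.4, 30.8, 24.9998 and 28.3 CPM in controls and 16.2, 12.8 and 20.5 in UIR, a log2 change of -0.67 ± 0.17 (edgeR adjusted p = 0.0158). The UUO pools with enough cells, UUO1 and UUO2, were at 49.2 and 21.2 CPM from 21 and 5 UMIs, and the UUO change of 0.44 ± 0.35 was not called (adjusted p = 0.616). The UIR call was lost without the library UIR1 (replicate 2), without the N or the AN controls, and in 2 other alternatives. The cluster with the highest level was led by Snhg11, Slc5a12 and Slc5a2, which are genes of the early proximal tubule, with 101 CPM in controls and 47.7 in UIR (exact Poisson 95% intervals 93.5 to 108 and 39.7 to 56.9). In the cluster led by Gatm and Car3 it was at 12.9 and 7.99 CPM, with overlapping intervals (10.3 to 16.0 and 4.13 to 13.96). The intervals overlapped in the other clusters as well, with 16.1 and 15.1 CPM in that with Slc22a6 and Slc7a13 among its leading genes (14.1 to 18.3 and 11.8 to 19.0), 2.61 and 2.85 in that led by Inmt and Cndp2, and 3.57 and 2.71 in that led by Napsa and Mep1b. Both UUO calls, Podxl and Thsd7a, rested on 1 of the 32 proximal tubule cells of library UUO1, which held 49 of its 49 Podxl UMIs and 24 of its 25 Thsd7a UMIs. Neither was called without that library (replicate 2).

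Podxl fell in the endothelium, its main site outside podocytes. It was at 1102, 1118, 1060.3, 1062 and 944 CPM in controls, 810.4, 844 and 867 in UIR, and 534, 687 and 805 in UUO. Each injured library lay below each control. The UUO log2 change was -0.74 ± 0.13 (edgeR adjusted p = 0.000243) and was called in all 28 alternatives, with a range of -0.89 to -0.60. The UIR change of -0.38 ± 0.13 was not called (adjusted p = 0.162). In endothelial cells 1 of 4 tested genes was called in UIR and 2 of 4 in UUO, against 1.91% and 11.8% of all genes. By cluster, Podxl was at 1071, 695 and 573 CPM in the cluster led by Ehd3 and Kdr, genes of the glomerular endothelium, and at 862, 685 and 514 in that led by Plvap and Rgcc. In the Sox17 cluster it was at 1210.3, 1188 and 1113 CPM (control, UIR and UUO), where the exact Poisson interval of control overlapped those of both injuries. In a cluster led by Fabp4 and Fam101b it was at 567, 412 and 499 CPM, and the control interval of 388 to 801 holds both injured values. That cluster, with the lowest Podxl level of the 4 in each group, made up 50 of the 697 control, 434 of the 1594 UIR and 465 of the 2025 UUO endothelial cells (7.17%, 27.2% and 23.0%), and the Sox17 cluster, with the highest, 28.6%, 19.8% and 15.7%. The Fabp4 cluster was shallow, at a relative UMI count of 0.253 against 1.36 to 1.45 in the other endothelial clusters. Its part of the summed UMIs was thus smaller than its share of cells. Free RNA was estimated to give 27.97 of the 4127 control and 741 of the 7682 UUO endothelial Podxl UMIs.

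The class called failed repair tubule cells, named here from Cp, Vcam1 and Krt8 among other markers, carried Podxl and Synpo at few control UMIs. Of 6 tested genes these 2 were called in each injury, against 5.86% and 8.46% of all genes, but neither passed the filter on the control pools alone, so the calls are no support for a difference. Podxl had 3 UMIs in the control pools and 297 in UIR, a ratio of 11.1 (exact counting interval 3.76 to 54.2), and 164 in UUO, a ratio of 13.0 (4.36 to 63.6). Controls were at 4.92, 4.46, 0 and 0 CPM, since N1 had too few of these cells, UIR at 51.3, 19.8 and 41.0, and UUO at 41.7, 37.9 and 14.6. The fitted log2 changes, 3.60 and 3.48, depend on the prior count, the UIR call was lost without the control Ctrl, and both were lost without the AN controls. The UMIs lay in the cluster led by Igfbp2, Tagln, Map1b and Tnc, with 79.2 CPM in 249 UIR cells and 84.0 in 122 UUO cells, while the other failed repair clusters were at 1.55 to 6.43. The Igfbp2 cluster held 10 of the 212 control, 249 of the 839 UIR and 122 of the 315 UUO cells of the class. Among its leading genes were 1 marker of the class, Cp, and 1 of another class. A further cluster, led by Bst1, Fst, Aqp1 and Apela, also had 1 marker of the class among its leading genes. It held 69 control, 187 UIR and 82 UUO cells, so the class name rests on few leading markers there too. Control and injured pools thus held different mixes of clusters.

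Ptpro fell in macrophages, where it was at 116, 119, 77.1, 116 and 78.4 CPM in controls, 60.4, 56.03 and 60.0 in UIR, and 61.1, 62.3 and 58.9 in UUO. No injured library reached a control. The log2 changes were -0.80 ± 0.17 (edgeR adjusted p = 0.00240) and -0.81 ± 0.17 (adjusted p = 0.000954), in a class where 1 of 4 tested genes was called in each injury, against 7.37% and 11.6% of all genes. Both calls were lost among barcodes of at least 1000 UMIs and without doublet removal. The control pools held 130 Ptpro UMIs in all. By cluster, Ptpro was at 109, 65.9 and 64.6 CPM (control, UIR and UUO) in that led by C1qa and C1qc. In that led by Ccl8 and Aif1, which held 142 of the 412 control, 2477 of the 3744 UIR and 2880 of the 4201 UUO macrophages, it was at 50.6, 31.6 and 46.0, with a control interval of 21.9 to 99.7 that holds both injured values.

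Thsd7a UMIs of the loop of Henle class were counted almost only in injured pools. The control pools held 1 UMI, in library AN1, and the UIR pools 405, at 15.2, 15.3 and 17.6 CPM, and the UUO pools 231, at 15.8, 18.4 and 17.4 CPM. The ratio to control was 31.7 in UIR (exact counting interval 5.66 to 1256) and 33.7 in UUO (5.99 to 1336). This pair passed the filter only through the injured pools, so its being called is no support for a difference. The class held 272 control cells, of which 2 were of the Umod cluster, where nearly all the injured UMIs lay. Injury and cluster can therefore not be told apart here. Of the loop of Henle cells in the Umod cluster, 23.4% in UIR and 21.9% in UUO had a Thsd7a UMI, against 0.37% in the Egf cluster of the controls. The Umod cluster was deeper, at a relative UMI count of 3.91 against 1.49 in the Egf cluster, so these shares are not at equal depth. Within the Egf cluster, UIR cells had one in 3.33%, from 4 UMIs (5.33 CPM, exact Poisson 95% interval 1.45 to 13.6). Free RNA was estimated to give 24.8 of the 405 UIR and 9.71 of the 231 UUO UMIs. In endothelial cells Thsd7a had log2 changes of -0.25 ± 0.25 and -0.47 ± 0.24, and neither was called.

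Synpo rose in endothelial cells, at levels far below those of podocytes. It was there at 81.3, 51.5, 50.03, 50.6 and 39.4 CPM in controls, 80.4, 106 and 137 in UIR, and 85.9, 130.0 and 117 in UUO. UIR overlapped the control library Ctrl, and UUO lay above all controls. The log2 changes were 0.90 ± 0.21 (edgeR adjusted p = 0.0296) and 0.89 ± 0.20 (adjusted p = 0.00693). Free RNA was estimated to give 13.4 of the 228 control, 86.5 of the 822 UIR and 273 of the 1278 UUO endothelial Synpo UMIs, so its share was higher in the injured pools. The UIR call was lost in 10 of 28 alternatives, among them the omission of each of N1, N2, AN1, AN2, UIR1 and UIR2, and the UUO call in the 2 that left out the N or the AN controls. In failed repair cells Synpo had 7 control UMIs, at 2.46, 13.4, 23.5 and 3.29 CPM in Ctrl, N2, AN1 and AN2, and was at 26.0, 29.4 and 42.2 CPM in UIR and at 25.6, 44.3 and 22.0 in UUO. The lowest UUO library thus lay within the control range, with log2 changes of 2.20 ± 0.55 and 2.15 ± 0.56 (adjusted p = 0.0298 and 0.0279). These calls were lost without Ctrl or AN2, the UIR call also without UIR1 or UIR2 and the UUO call also without UUO1. Synpo was at 70.2 CPM in UIR and 72.9 in UUO in the Igfbp2 cluster, which held 10 control cells, and at 8.53 to 12.0 in the other failed repair clusters of injured kidneys.

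In the loop of Henle Synpo had 1 control UMI, in library AN2, and like Thsd7a passed the filter only through the injured pools, so its calls against control are no support for a difference. The injured pools were at 4.30, 7.71 and 5.90 CPM in UIR and 12.3, 12.5 and 13.0 in UUO, a ratio of 11.8 (exact counting interval 2.08 to 467) and 24.5 (4.34 to 973). UUO exceeded UIR without overlap, at a log2 difference of 1.07 ± 0.23 (edgeR adjusted p = 0.00792), in a comparison where 1 of 5 tested genes and 2.02% of all genes were called. That difference was not called without library UIR2 (replicate 3). In principal cells Synpo was at 0 to 2.96 CPM in controls, 4.29, 1.94 and 2.01 in UIR, while the UUO libraries were at 8.41, 10.0 and 10.2. The pools held 7, 30 and 103 Synpo UMIs in control, UIR and UUO. The gene passed the filter here only through the UUO pools, so that its calls against control (log2 change 2.45 ± 0.55) and against UIR (1.68 ± 0.41) are no support for a difference. Free RNA was estimated to give 55.4 of the 150 UIR and 17.5 of the 168 UUO Synpo UMIs in the loop of Henle and 15.6 of the 103 in principal cells.

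Clic3 was higher in the principal cell class of UUO, against a control level close to that of free RNA. As described for Magi2, control and UUO cells of this class were mostly of different clusters. It was at 5.86, 8.02, 5.22, 4.93 and 1.04 CPM in controls, 7.56, 4.53 and 8.06 in UIR, while the UUO libraries were at 40.02, 30.2 and 10.2. Free RNA was estimated to give 15.7 of the 23 control, 10.3 of the 72 UIR and 6.35 of the 300 UUO UMIs, so the size of a change against control is uncertain. The fitted UUO log2 change was 2.25 ± 0.52 (edgeR adjusted p = 0.00436), and the difference from UIR was 1.94 ± 0.43 (adjusted p = 0.0182), in a comparison where 6.98% of all genes were called. Neither was called at a mitochondrial limit of 15%, the former at an edgeR adjusted p of 0.374. The difference from UIR was also not called when any of UIR, UIR1, UIR2 or UUO1 was left out. The same held without both unnumbered libraries and with only the 2 groups compared. Levels were highest in the Aldh1a3 cluster, at 87.8 CPM in 55 UUO cells and 13.5 in 22 UIR cells (exact Poisson 95% intervals 72.7 to 105 and 4.38 to 31.5).

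Wt1 and Nphs1 were not called in any class by edgeR over all libraries. In alternatives, Wt1 was called lower in stroma (6 in UIR, 2 in UUO), and higher in failed repair cells (1 in UIR, 3 in UUO) and in the proximal tubule of UUO (3), where Nphs1 was called in 3 as well. The UUO proximal tubule pools held 7 Wt1 and 9 Nphs1 UMIs. In UUO1, 1 cell held 143 of the 178 UMIs of the 9 genes in that class, so these calls are no support for a difference. Wt1 had log2 changes of 1.16 ± 0.52 and 1.42 ± 0.53 in failed repair cells (edgeR adjusted p = 0.221 and 0.122) and -1.68 ± 0.67 and -1.03 ± 0.63 in stroma (adjusted p = 0.201 and 0.402). In stroma 0 of 6 tested genes were called by edgeR in either injury, against 5.81% and 7.93% of all genes. DESeq2 called 0 in UIR and 1 in UUO. At an unadjusted edgeR p under 0.05 there were 2 in each, and the share of all genes at that threshold is not given here. Thsd7a in stroma had 6 control UMIs, all in 1 library, and was at 11.7 to 25.8 CPM in UIR and 42.5 to 96.6 in UUO. Its UUO log2 change of 2.68 ± 0.89 was not called (adjusted p = 0.103), though it was in 6 alternatives, and the gene did not pass the filter on the control pools alone. In failed repair cells Thsd7a had a UIR log2 change of 1.27 ± 0.40, not called by edgeR over all libraries (adjusted p = 0.0796) and called in 3 alternatives. In T and NK cells 0 of 4 were called by edgeR, against 0.607% and 2.54%, with 0 at an unadjusted p under 0.05 and 0 by DESeq2.

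**Figure D5:**
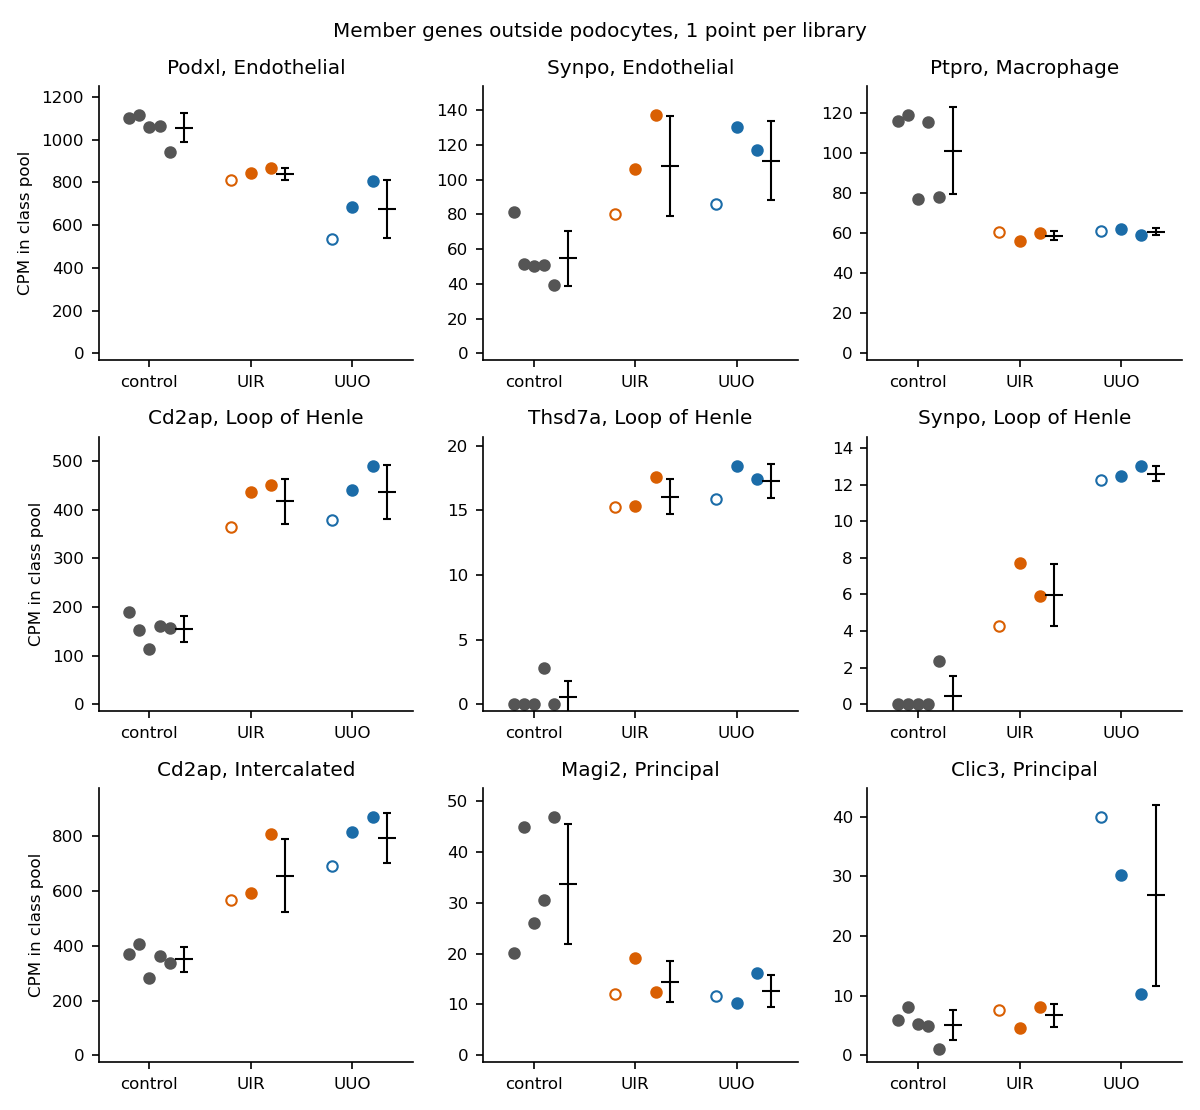
CPM of called gene and class pairs outside podocytes, 1 point per library with the group mean and SD; open points are the unnumbered injured libraries. Podxl in endothelial cells, Ptpro in macrophages and Magi2 in principal cells are lower in all injured libraries than in the controls, and Cd2ap in the loop of Henle and intercalated cells is higher.

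Counted over whole libraries, with no cell calling, the 9 genes together took more of the UMIs in injured kidneys. Per 1000000 UMIs of all barcodes, the sum was 190.1 ± 79.8 in controls (132 to 327), 409.6 ± 72.5 in UIR (349 to 489.8) and 518 ± 24.7 in UUO (491 to 539). Every injured library lay above every control (two-sided exact permutation p = 0.0179 in each model). In empty droplets the sum was 109 ± 84.8, 296 ± 136 and 472 ± 202 (exact permutation p = 0.0536 and 0.0179). In kept cells it was 810.0 ± 183, 649 ± 161 and 595 ± 153 (exact permutation p = 0.232 and 0.196). Over all barcodes Cd2ap, mostly outside podocytes in kept cells, was the largest part of the sum in each group, with means of 58.1, 179 and 217 CPM. Such sums cannot tell fewer cells from less RNA per cell, and the other genes of a library enter through the total. Mitochondrial UMIs are part of that total, and a mean of 73.5% of called barcodes in controls, against 5.19% in UUO, were over the mitochondrial limit. Their part in these differences was not tested.

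Single genes differed in this measure. Cd2ap rose from 58.1 CPM in controls to 179 in UIR and 217 in UUO, Ptpro from 6.61 to 15.7 and 24.9 (exact permutation p = 0.0179 for each, 0.0459 adjusted over 18 tests). In UUO, Podxl (43.4 to 133), Synpo (15.2 to 42.8) and Wt1 (6.52 to 14.8) passed as well, with the same p. The means of Nphs1 were 15.3, 20.3 and 18.5 in control, UIR and UUO (p = 0.446 in both exact permutation tests), and Magi2 at 16.1, 19.8 and 17.5 (p = 0.446 and 0.804). Clic3 and Thsd7a also missed the threshold, with adjusted p of 0.134 to 0.413.

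Over the 13 control classes the genes with the profile most like the mean of the 9 were Foxc2, Tmem54 and Agrp (Pearson r of log2(CPM + 1) 0.95 each, among 12898 genes). The r of single members with that mean ranged from 0.69 for Cd2ap to 0.95 for Nphs1. The nearest gene to Wt1 was C1qtnf7 (0.99), to Clic3 Lingo2 (0.98), to Nphs1 Nxph3 (0.97) and to Podxl the endothelial claudin gene Cldn5 (0.94). The points of these correlations are cell classes that share libraries, and the class sums differ in depth.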

How the data were processed

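The deposited files hold UMI counts per gene and barcode for 11 libraries, which the authors made with Cell Ranger 3.1.0 on mm10 according to the submitters' processing notes, whereas the methods name another version. The counts deposited are raw and unfiltered. Barcodes were called as cells from the knee of each library, or by a test against the empty-droplet profile (ranks 45000 to 90000, 10000 simulations, FDR 0.01, at least 500 UMIs). Cells over 30% mitochondrial or 5% haemoglobin UMIs or under 200 genes were removed, as were the 7.5% with the highest doublet scores (3291 barcodes). Cells were clustered together (2000 variable genes, 40 components, 20 neighbours, Leiden resolution 1) without the 9 genes and the naming markers, and clusters were named from markers, with at least 3 detected. One further condition of naming was set after the clusters' leading genes had been seen. The 9 genes and all lists were chosen with earlier results of these data known.

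UMIs were summed per library and class in pools of at least 20 cells and tested with the edgeR quasi-likelihood test (TMM factors, filterByExpr, the 3 groups in one model), and p-values were adjusted by Benjamini-Hochberg across the genes of each comparison, at 0.05. DESeq2 was an alternative. Single values were compared with two-sided exact permutation tests. Intervals of counts are exact Poisson intervals and cover counting error only. The test was checked on simulated counts. Text names all 9 genes, list members by smallest p, the 3 nearest profiles of each gene or the first of them, and in podocytes up to 5 called genes per direction of at least 50 CPM whose injured libraries all lay outside the control range. Alternatives changed the mitochondrial limit (15%, 50%), UMI minimum (1000), doublet removal, resolution (2), clustering genes, pool size (5 cells), filter, scaling, free RNA, the libraries included and the model. Software was Python 3.11.15, numpy 2.4.6, scipy 1.17.1, pandas 2.3.3, igraph 0.11.9, scikit-learn 1.9.0, matplotlib 3.10.9, R 4.3.3, edgeR 4.0.16 and DESeq2 1.42.0.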

Additional observations from a re-analysis of the deposited data

Results flagged for a closer look

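Of 30 groups of control values examined, 8 had 1 library far from the other 4. The nominal rate of about 1 in 20 groups holds for independent, normally distributed values and does not apply here. The groups overlap, and in the loop of Henle the outlying value is 1 UMI against values of 0. The library Ctrl stood apart in 5 of them. Its shallow share of podocytes was 17.3%, against 3.03% to 6.90% in the other controls, and its median UMI count per podocyte was 10898, against 8266 to 8800. Its sum of the 9 genes was 327 CPM over all barcodes, against 132 to 179, and 260.4 in empty droplets, against 59.9 to 76.5. Its endothelial Synpo level was 81.3 CPM, against 39.4 to 51.5. The library N1 had 2314 CPM of Synpo in podocytes, against 1833 to 1948. In the loop of Henle, Synpo was at 2.36 CPM in AN2 and Thsd7a at 2.77 CPM in AN1, each from 1 UMI, with the other controls at 0.

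The edgeR test of UUO against UIR passed in 3 gene and class pairs. Synpo was higher in UUO in the loop of Henle (log2 difference 1.07 ± 0.23 (SE), adjusted p = 0.00792). Clic3 was higher in UUO in principal cells (1.94 ± 0.43, adjusted p = 0.0182). Synpo in principal cells (1.68 ± 0.41, adjusted p = 0.0126) passed the filter on low counts only through the UUO pools, so its call is no support for a difference. In each pair the 3 UUO libraries lay above the 3 UIR libraries.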

How the results depend on the processing

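The difference in podocyte share between UIR and control, -0.54 points, was 0.436 at a mitochondrial limit of 50% (exact permutation p = 0.375) and -4.97 over cells outside the proximal tubule. That between UUO and control, -1.25 points, had an unadjusted exact permutation p under 0.05 at a limit of 15% (-5.19), without doublet removal (-1.16), at 1000 UMIs (-1.90), outside the proximal tubule (-5.99) and for deep podocytes (-1.62), the last 2 with an exact permutation p of 0.0536 after adjustment, and ranged from -1.60 to -0.967 with each library left out, with an unadjusted exact permutation p of 0.0476 without UUO2. The rise of the summed genes in UIR, 219.5 CPM, was 186 in empty droplets and -161 in kept cells, and 179 to 254 with each library left out, missing the threshold without N1, N2, AN1 or AN2 (exact permutation p = 0.0571). In UUO it was -215 in kept cells.

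Genes called in podocytes numbered 64 in UIR, and 36 without the AN controls, 39 with free RNA subtracted, 175 without the filter and 36 (without AN2) to 84 with each library left out. In UUO they numbered 108, and 171 at 1000 UMIs, 54 without the AN controls, 60 at a 50% limit, 175 without doublet removal, 210.0 without the filter, 227 in deep podocytes, 217 without both unnumbered libraries (the last 2 alternatives chosen after seeing the data) and 37 to 182 with each library left out, with 37 without UUO2, 50 without UUO1, 65 without AN2 and 182 without UIR. Between UUO and UIR they numbered 5, and 14, 2 (AN or Ctrl left out), 1 (free RNA), 3 (15% limit or no doublet removal), 31 (no filter), 0 (2 groups only), 9 (deep), 13 (both unnumbered left out) and 0 to 14 with each library left out. Of the 9 genes, 1 was called in UUO podocytes at 1000 UMIs, at 15%, in deep podocytes and without both unnumbered libraries, and 0 to 1 with each library left out (1 without UUO). Outside podocytes, the 10 UIR calls became 6 without the AN controls or at 15%, and the 14 UUO calls 7 at 15% and 23 without doublet removal.

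Uncalled log2 changes near zero turned sign, given here in the order 1000 UMIs, mitochondrial limit of 15%, deep podocytes and without both unnumbered libraries. Podxl in UIR was 0.0313, 0.0491, 0.178 and 0.132, also 0.00296 without AN, 0.0202 with free RNA subtracted and -0.116 to 0.129 with each library left out. Ptpro in UIR was 0.0423, 0.0672, 0.159 and 0.112, also 0.0480 without the N controls, 0.0182 with free RNA subtracted and -0.118 to 0.108 with each library left out. Wt1 in UUO was 0.0862, 0.0394, 0.0730 and 0.0483, also 0.0360 without AN and -0.116 to 0.0537 with each library left out. Cd2ap in UUO was 0.0529, 0.0275, 0.0361 and 0.0412, also 0.0672 without AN and -0.226 to 0.0494 with each library left out. Cd2ap in UIR was -0.0858 without the N controls and -0.0833 to 0.169 with each library left out, and Ptpro in UUO -0.0487 to 0.297. The cause of these shifts was not tested.

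With the title number as a replicate block, 81, 140.0 and 16 genes were called in podocytes for UIR, UUO and UUO against UIR, 0 of the 9 genes in each, 11 and 16 pairs elsewhere, and the UIR change of Podxl was 0.00163. Over the 13 pairs that share a block, 3 of them of libraries with no number, the deviations had a mean correlation of 0.0326 (-0.0276 to 0.129, the highest between the unnumbered UIR and UUO), and not every pair exceeded 0.1, so the numbers are not taken as pairs. Depth limits the podocyte comparisons: the unnumbered UUO pool held 33123 UMIs.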
